A study of Spirodela polyrhiza and Pistia stratiotes and Colocasia esculenta with 79 samples.

Results

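The floating rosette of Pistia stratiotes, the water lettuce, has a set of transcripts held at a like level in the petiole, the stem and the stolon and at a lower level in the Apical and Basal regions. They were chosen from RNA-seq values in TPM (a transcript's abundance, a level per transcript length scaled to a common total per library). For each region a mean level L was taken as the mean of log2(TPM + 1) over its 4 libraries. The score of a transcript was the lowest L of Petiole, Stem and Stolon minus the higher L of Apical and Basal. Members came from genes with a single row in the table, had a score of at least 1, a range of at most 0.7 among the L of Petiole, Stem and Stolon, and a mean of at least 10 TPM in each of these 3 regions. The table held 19647 transcripts of 16165 genes, and 13850 transcripts were the single row of their gene. Of these 7505 reached 10 TPM in the 3 regions, 1099 also had a score of at least 1, and 421 of those were within the range limit. The 150 with the highest scores are described here.

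Each region was represented by 4 libraries, described in the labels as biological replicates, so 20 of the 79 libraries of the series were used. The other libraries came from 3 further arum-family species. Per the labels, plants were grown at 22 °C under fluorescent light. The labels do not say which organ the Pistia Apical and Basal regions belong to, and for taro, another species of the series, call such regions leaf-derived. They name no genotype, strain, treatment or plant age for Pistia, and do not say whether replicates were separate plants or pools, so the spread between libraries may be partly technical. Poly-A RNA was sequenced as paired reads of 150 bp. The columns summed to between 998999 and 999582 TPM, and TPM gives no read depth, so the counting error behind a single value is unknown.

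The petiole joins a leaf blade to the stem, the stem bears the leaves and buds, and the stolon is a horizontal stem that carries a daughter plant. All of these organs contain vascular strands and ground tissue that connect and support the plant. The identifiers of the table are not paired with gene names, and no annotation or sequence was used here. No role can therefore be given to a member, the region labels could not be checked against defining genes, and no known vascular, cell-wall or photosynthesis list could be counted. Because these are whole pieces of tissue, fewer cells of a type and less RNA per cell cannot be told apart.

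The member scores ran from 1.66 to 5.19 on the log2(TPM + 1) scale, with a median of 2.16, against a median of 0.04 over the 7505 transcripts at 10 TPM or more in the 3 regions. These values chose the members and are given as a description, without a test. The mean TPM of the lowest of the 3 regions was between 3.02 and 78.6 times that of the higher of Apical and Basal, with a median of 4.86. Apical and Basal were low and mostly not empty: both means were under 1 TPM in 7 members, and 54 members had 10 TPM or more in at least 1 of them. The Apical mean was under 1 TPM in 26 members and the Basal mean in 8. The rule chose members on this contrast, so a separation of single libraries follows largely from the choice. Its share over the 7505 transcripts was not counted. In 148 members the lowest of the 12 Petiole, Stem and Stolon libraries lay above the highest of the 8 Apical and Basal libraries. The exceptions were Pis03007.t1 and Pis12756.t1, the latter picked out for its values, with a lowest of 3.00 TPM among the 12 and a highest of 4.48 TPM among the 8. At the lower edge of the list, Pis01595.t1, Pis10579.t1 and Pis05193.t1 had scores of 1.67, 1.66 and 1.66. The next transcripts outside it, Pis00150.t1, Pis14661.t1 and Pis09460.t1, had 1.65, 1.65 and 1.64, so the cap does not fall at a gap in the scores.

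**Figure D1:**
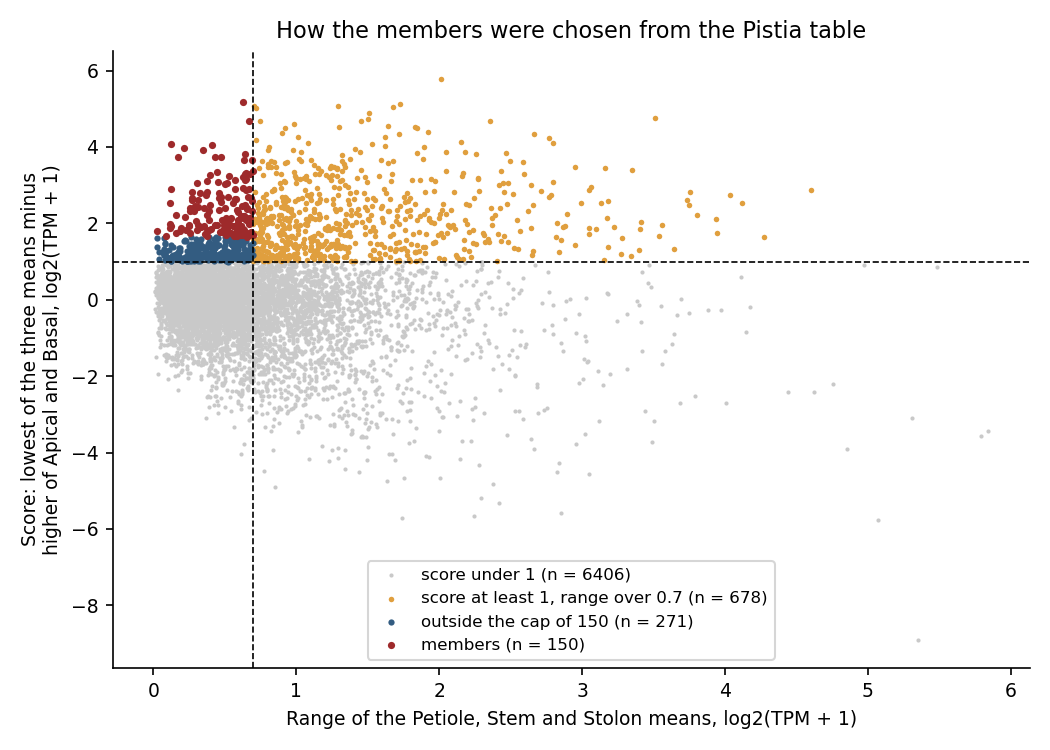
Score (vertical axis) against the range of the Petiole, Stem and Stolon means (horizontal axis), both on the log2(TPM + 1) scale, for the 7505 single-row transcripts at 10 TPM or more in the 3 regions. The 150 members (dark red) lie left of the range limit of 0.7, above 271 transcripts left out by the cap (blue), and 678 transcripts with a score of at least 1 lie beyond the range limit (orange).

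Whether most transcripts low in Apical and Basal counted as level across the other organs depended on the range limit. Of the 1099 with a score of at least 1, 678 exceeded the limit used, whereas 637 were within a limit of 1. The share of the 7505 transcripts beyond the limit used is not given, so no trait of low transcripts is read from this. Among the 678 the highest region was Stem in 333, Stolon in 295 and Petiole in 50. Petiole was the lowest of the 3 in 396 of them. Among the 150 members the highest region was most often Stolon, in 84, then Stem in 48 and Petiole in 18, and the lowest was Petiole in 95, Stem in 41 and Stolon in 14. The median difference over the members was 0.32 for Stolon minus Petiole, 0.19 for Stem minus Petiole and 0.10 for Stolon minus Stem. Over the 7505 transcripts these medians were 0.02, 0.11 and -0.06, and the highest region was Stem in 47.9%, Stolon in 28.3% and Petiole in 23.7%. The rule bounds these differences in the members, so they are a description. They also depend on the TPM scale. Median-of-ratios size factors, taken up below, were 1.16 to 1.25 in Stem, 1.05 to 1.07 in Petiole and 1.03 to 1.06 in Stolon. Dividing by them lowers Stem against Petiole and Stolon, and these medians and ranks were not recomputed on that scale. Petiole replicate 3, which was low over the members, also lowers their Petiole means.

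**Figure D2:**
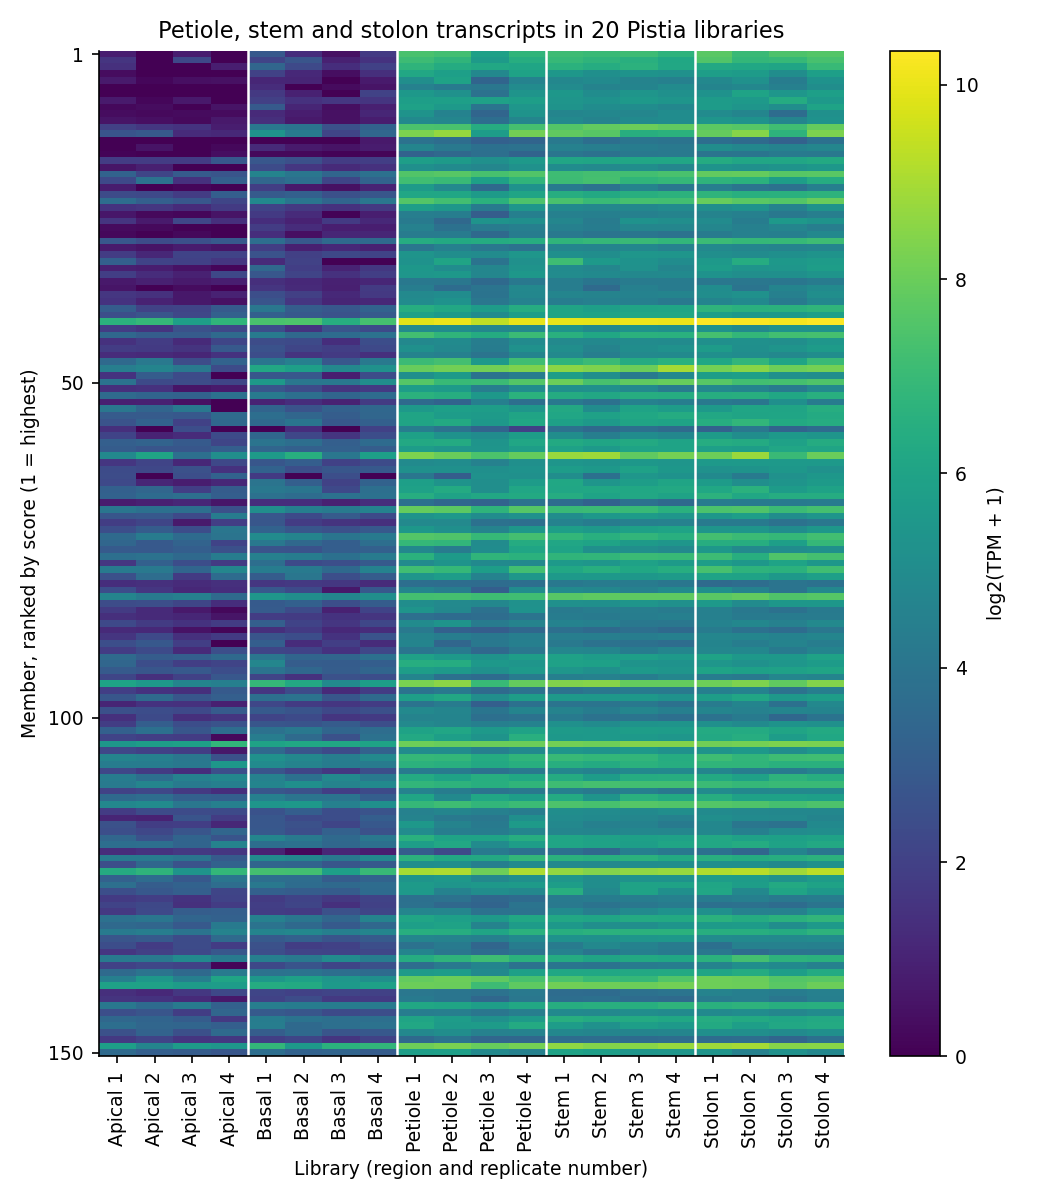
Level of the 150 members (rows, highest score at the top) in the 20 Pistia libraries (columns), as log2(TPM + 1). The 8 Apical and Basal columns are darker than the 12 Petiole, Stem and Stolon columns in nearly every row, and Petiole replicate 3 is visibly darker than the other Petiole columns in many rows.

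The highest score belonged to Pis05187.t1, at 5.19. Its values in replicates 1 to 4 were 165, 149, 58.1 and 107 TPM in Petiole, 138, 128, 135 and 102 in Stem and 208, 127, 176 and 193 in Stolon. They were 6.45, 1.58, 0.389 and 2.36 TPM in Basal and 0.830, 0, 0.776 and 0 in Apical. The lowest of the 12 values, in Petiole replicate 3, was thus well above the highest of the 8 other values, in Basal replicate 1. Pis05188.t1, which carries the next identifier number, was second, at 4.67. It stood at 136, 109.9, 49.5 and 86 TPM in Petiole, 119.9, 105, 90.9 and 71.8 in Stem, 186, 115, 119.8 and 162 in Stolon, 3.34, 5.68, 0.917 and 1.86 in Basal and 2.00, 0, 3.67 and 0 in Apical. The profiles of both transcripts over the 20 libraries had a Pearson r of 0.99, which takes in the step the rule chose. Both were low in Petiole replicate 3. They could share reads if their genes are near-identical copies, which was not tested.

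The next by score, Pis03574.t1 and Pis09875.t1, differed in how they varied between libraries. Pis03574.t1 was at 104, 81, 72.8 and 67.7 TPM in Petiole, 98, 83.5, 98.3 and 72.9 in Stem and 74.9, 71.6, 65.2 and 125 in Stolon, with a range of 0.12 between the 3 region means. Its Basal values were 9.76, 3.86, 1.53 and 3.05 TPM and its Apical values 1.71, 0, 0 and 0.834, so the 8 libraries of these regions stood far below the other 12. Pis09875.t1 was at 72.1, 56.7, 27.2 and 62.3 TPM in Petiole, 44.1, 35, 38.8 and 36.2 in Stem and 54.4, 50.2, 32.7 and 55.7 in Stolon. It reached 3.15, 1.29, 0.302 and 1.62 TPM in Basal and was listed at 0 in 3 of the 4 Apical libraries, with 0.252 TPM in replicate 1. Its Petiole replicate 3 was lower than each of its other libraries of the 3 regions, whereas in Pis03574.t1 the lowest Petiole value was in replicate 4.

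The next 4 members had moderate levels and Apical values near 0. Pis04365.t2 averaged 31.7 ± 21.9 TPM in Petiole, 25.4 ± 3.60 in Stem and 30.5 ± 8.53 in Stolon (SD, n = 4 for each mean), against 0.730 ± 0.534 in Basal and 0.385 ± 0.209 in Apical. Its Petiole values were 33.5, 60.9, 9.17 and 23.3 TPM, a spread wider than that between the means of the 3 regions. Pis07591.t1 and Pis10223.t1 were listed at 0 in all 4 Apical libraries, as was Pis15470.t1, picked out here for that reason. Pis07591.t1 was at 22.1, 17.6, 16.4 and 30.9 TPM in Petiole, 30.6, 23.5, 24.3 and 31.1 in Stem, 24.2, 26.9, 22 and 32.8 in Stolon and 1.51, 0, 0.229 and 0.466 in Basal. Pis10223.t1 was at 45, 36.5, 13.8 and 39.7 TPM in Petiole and 43.5, 31.4, 41.3 and 36 in Stem. It had 37.6, 63.2, 41.9 and 57 TPM in Stolon and 2.30, 0.943, 0 and 3.14 in Basal. Both were thus detected in Basal at low values in some libraries and listed at 0 in another. Pis06350.t1 was the steadiest of the 8 in the petiole, at 55.3, 56.5, 59.9 and 54.4 TPM, with 41, 38.2, 47.3 and 40.7 in Stem and 51, 46.1, 81.3 and 46.3 in Stolon. It stood at 2.89, 1.79, 2.14 and 2.06 TPM in Basal and 0.659, 0.128, 0.634 and 0 in Apical, without overlap between those regions.

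**Figure D3:**
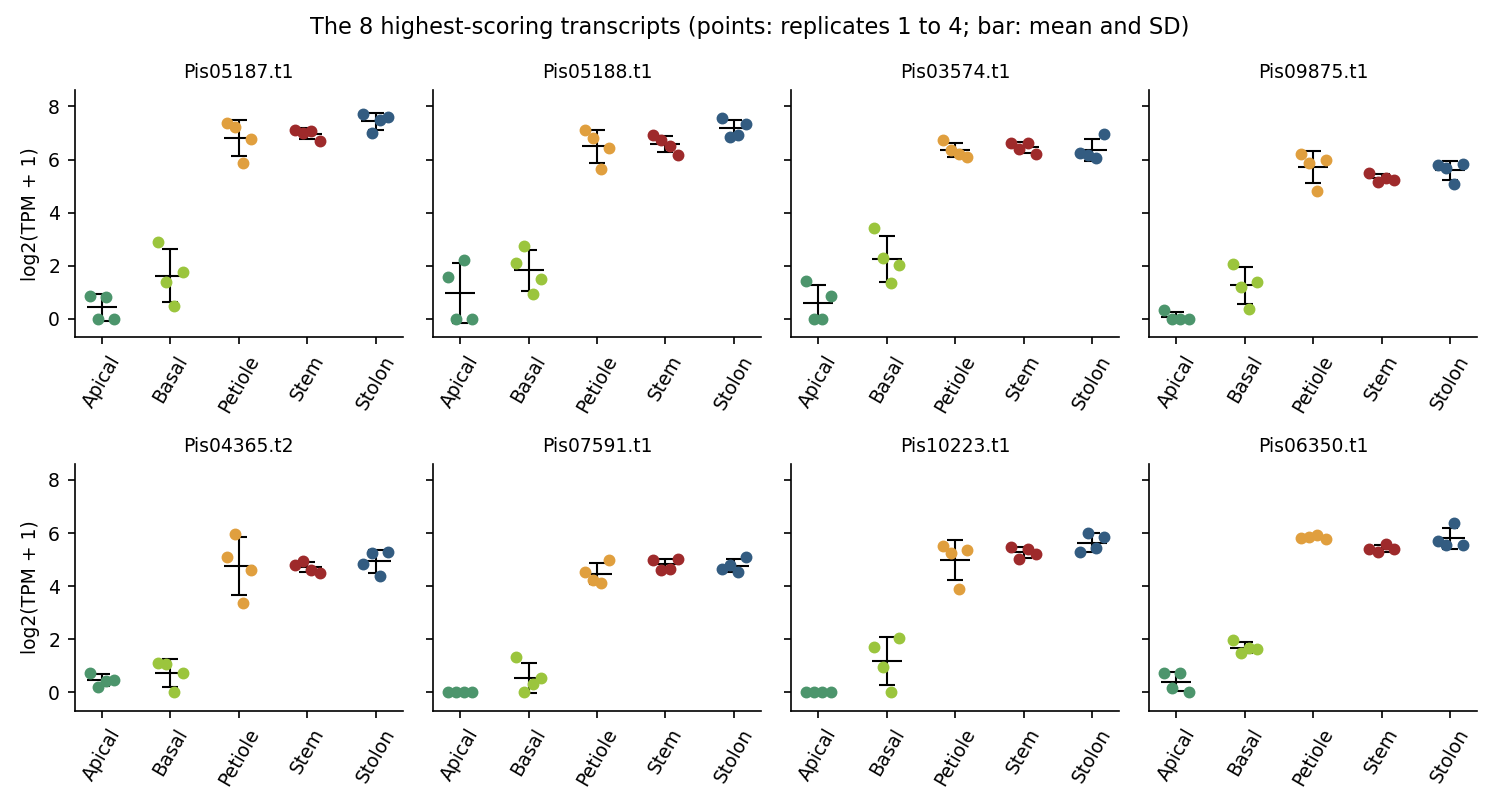
Level of the 8 highest-scoring members in each library, as log2(TPM + 1), by region. Points are the 4 replicates, horizontal bars the mean and error bars the SD; Petiole, Stem and Stolon sit well above Apical and Basal in each panel, and the lowest Petiole point is replicate 3 in Pis05187.t1, Pis05188.t1, Pis09875.t1, Pis04365.t2, Pis07591.t1 and Pis10223.t1.

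Levels differed widely between members. Over the 150, the mean of the 3 region means had a median of 40.6 TPM, lay under 20 TPM in 24 members and reached 100 TPM in 28. The most abundant was Pis08245.t1, at 959, 1044, 648 and 1039 TPM in Petiole, 1039, 1010.2, 1097 and 1057 in Stem and 1283, 1249.7, 1189.8 and 1305 in Stolon. It was also the member with the highest means in Apical and Basal, at 165, 173, 86.8 and 157 TPM in Basal and 97.6, 118, 56.9 and 107 in Apical. Its lowest value among the 12 libraries was again that of Petiole replicate 3, and no Apical or Basal library came near it. Pis10987.t1 followed at 464 ± 131 TPM in Petiole, 394 ± 37.9 in Stem and 562 ± 67.5 in Stolon, against 85.2 ± 32.9 in Apical and 120.0 ± 43.6 in Basal (SD, n = 4 for each mean). Pis10579.t1 averaged 277 ± 25.7, 385 ± 36.7 and 414 ± 68.1 TPM in Petiole, Stem and Stolon, and Pis11835.t1 285 ± 32, 362 ± 97.1 and 305 ± 42.7. Pis17891.t1 was lowest in replicate 3 of every region, with 318, 249, 169 and 240.0 TPM in Petiole and 259, 446, 127 and 252 in Stolon. Pis08947.t1 was steadier, at 263, 246, 257 and 259.7 TPM in Petiole, 282, 269, 341 and 339 in Stem and 276, 293, 312 and 308 in Stolon, while Apical replicate 4, at 111 TPM, stood above its other Apical and Basal libraries. Summed over the members, TPM was 7460 to 11418 in Petiole, 10407 to 11535 in Stem and 10772 to 12783 in Stolon, against 1303 to 2325 in Basal and 996 to 1359 in Apical.

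The means of the 3 regions were closest in Pis12353.t1, whose means were 89.7 ± 20.2 TPM in Petiole, 89.7 ± 9.31 in Stem and 89.9 ± 7.56 in Stolon (SD, n = 4 each), a range of 0.03 on the log2 scale. Its lower means were 24.9 ± 5.62 TPM in Basal and 14.2 ± 5.37 in Apical. Pis01595.t1 and Pis10148.t1 followed with ranges of 0.09 and 0.11. Pis01595.t1 had 10.5, 14.5, 9.71 and 9.92 TPM in Petiole, 11.7, 12.1, 11.4 and 12 in Stem and 11.6, 12, 9.42 and 13.2 in Stolon, with 2.76, 3.42, 2.03 and 3.07 in Basal and 2.25, 3.24, 2.06 and 2.21 in Apical. Pis10148.t1 had near-equal means, but its Petiole libraries were 97.5, 87.1, 44.3 and 96.8 TPM against 81.8, 73.6, 87.2 and 84.6 in Stem, so replicate 3 alone lay apart. Equality of means is therefore not equality of libraries in that member.

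The members with the widest spread between replicates were Pis05930.t1, Pis03007.t1 and Pis18234.t1, with SDs of 0.95, 0.77 and 0.74 on the log2(TPM + 1) scale averaged over Petiole, Stem and Stolon. Pis05930.t1 ranged over 315, 420.0, 51.8 and 285 TPM in Petiole, 224, 203, 88 and 98.1 in Stem and 239, 356, 102 and 318 in Stolon, with replicate 3 lowest in each. It had 38.5, 18.4, 3.38 and 9.70 TPM in Basal and 5.44, 6.41, 1.39 and 1.32 in Apical. Pis03007.t1 had 15.6, 7.21, 36.8 and 36.1 TPM in Petiole, 33.1, 13.2, 42 and 37.7 in Stem and 28.7, 18.5, 36.6 and 43.9 in Stolon, and here replicate 2 was lowest in each. It was listed at 0 in Apical replicate 2 and in Basal replicates 2 and 4, and its highest Apical value of 8.66 TPM exceeded its Petiole replicate 2. In Pis18234.t1 the high values were single libraries, Stem replicate 1 at 139 TPM against 31.5 to 45.9 in the other Stem libraries, and Stolon replicate 2 at 83.3 TPM against 45.1 to 49.7.

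The members were also compared between Basal and Apical, since the rule uses only the higher of both and does not fix which it is. Basal was above Apical in 134 of the 150 members by mean log2(TPM + 1), against 49% of the 18727 transcripts tested. In a fit of all 20 libraries with limma, all 150 members passed the filter on low values (at least 1 TPM in at least 4 libraries), which their levels in Petiole, Stem and Stolon made certain. The 8 Apical and Basal libraries alone would have passed 132 of them, and 2 members reached 1 TPM in none of these 8. At a Benjamini-Hochberg adjusted p under 0.05 over all transcripts tested, 16 members were higher in Basal, where 1.19% of all tested transcripts were called higher. Of these 16, 14 were among the 132, and the others, Pis00327.t1 and Pis01859.t1, are named for that reason. None was called lower by limma, where 0.0374% of all were, and 1 member (0.667%) had an unadjusted p under 0.05 in that direction, against 4.74% of all tested. In the other direction 69 members had one (46.0%), against 8.32% of all tested. The median Basal minus Apical difference was 0.49 over the members and -0.01 over all transcripts tested. In 27 members every Basal library was above every Apical library, against 3.13% of all tested, and in 1 member every Basal library was below, against 1.21%. Compared within each replicate number, Basal was above Apical in all 4 numbers in 76 members, against 12.7% of all tested, and below in all 4 in 2 members, against 9.47%. The labels do not say whether libraries of one number came from the same plants, so this matching is by number only. Over the 7505 transcripts at 10 TPM or more in Petiole, Stem and Stolon, limma called 2.11% higher in Basal and 0 lower. Among these, Basal was above Apical by mean in 46.3% and in all 4 numbers in 17.9%, and every Basal library was above every Apical library in 4.42%.

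**Figure D4:**
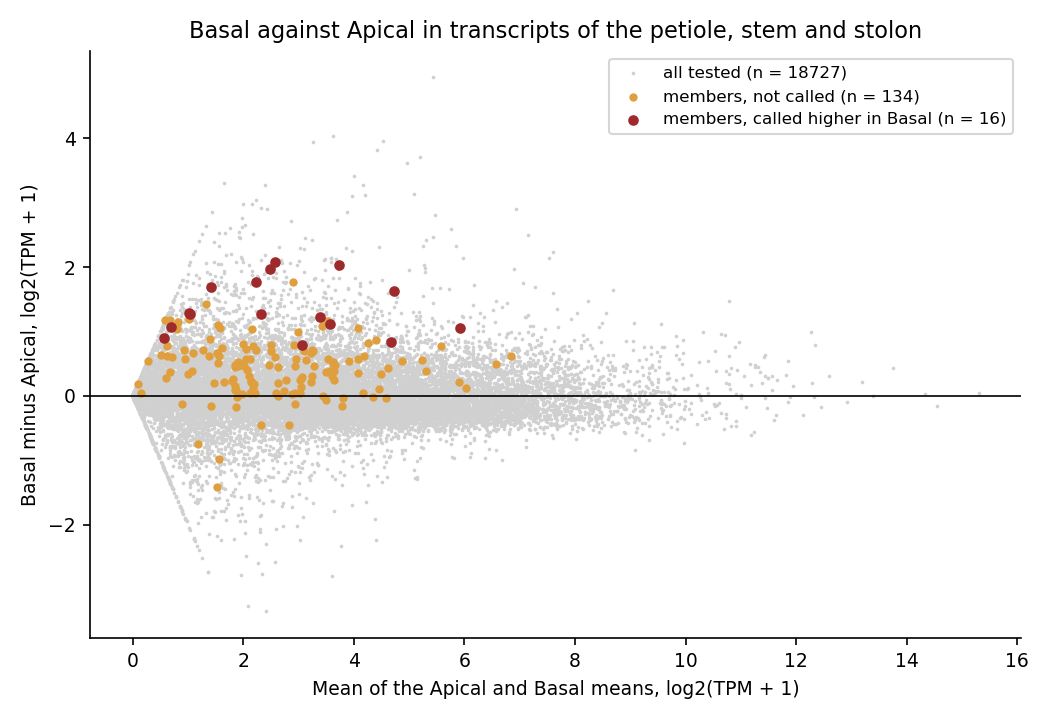
Basal minus Apical difference (vertical axis) against the mean of the Apical and Basal means (horizontal axis), both in log2(TPM + 1), for the 18727 tested transcripts (grey) and the 150 members (coloured). Of the members 134 lie above 0, and the 16 called higher in Basal by limma are dark red.

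The largest such difference among the called members was in Pis04205.t1, whose Basal values were 19.9, 11, 4.97 and 13.7 TPM and whose Apical values were 3.21, 2.78, 2.62 and 0.187. The groups did not overlap, and the log2 difference was 2.08 (SE 0.38, limma adjusted p = 0.00698). Its levels in Petiole, Stem and Stolon were 65 ± 22.5, 45.3 ± 2.62 and 71.1 ± 14.7 TPM (SD, n = 4 each). Basal thus stood between Apical and the other organs, a place that the rule fixes once Basal exceeds Apical. Pis12078.t1 was at 49, 16.2, 16.6 and 33 TPM in Basal and 14.6, 4.01, 4.35 and 3.44 in Apical, where the lowest Basal value was just above the highest Apical one. The groups differed by 2.03 (SE 0.36, adjusted p = 0.00564 by limma). Its mean was 223 ± 45.6 TPM in Stem, with 161 ± 35.7 in Petiole and 172 ± 24.4 in Stolon. Pis12076.t1, close to it in identifier number, also had Basal above Apical by mean, with 15, 7.86, 3.14 and 8.48 TPM in Basal and 3.83, 1.16, 0.776 and 1.23 in Apical. Here Basal replicate 3 was below Apical replicate 1, so the groups overlapped. The difference was 1.77 (SE 0.35, limma adjusted p = 0.0114), and without Basal replicate 1 its call was lost (difference 1.47, adjusted p = 0.0522, with adjusted p between 0.000394 and 0.422 over all alternatives).

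Pis00383.t1 stood at 16.5, 14.4, 4.88 and 8.52 TPM in Basal and 2.94, 2.21, 1.83 and 0.780 in Apical, again without overlap. The log2 difference was 1.97 (SE 0.31, limma adjusted p = 0.00211), and its means were 144 ± 39.8 TPM in Petiole, 226 ± 28.8 in Stem and 198 ± 39.1 in Stolon. Pis03574.t1, the third by score, differed by 1.69 (SE 0.37, limma adjusted p = 0.0264). Its call was lost without Apical replicate 2 or 3 (limma adjusted p = 0.0802 and 0.0696), and without Basal replicate 1, 2 or 4 (0.101, 0.0635 and 0.0524), over a range of 0.00450 to 0.504 across all alternatives. Pis11835.t1 had 73, 55.9, 27.8 and 37.1 TPM in Basal and 20.4, 24.5, 17.2 and 4.21 in Apical, a difference of 1.62 (limma adjusted p = 0.0409). It was near the threshold and lost its call in 17 of 26 alternatives, among them leaving out Basal replicate 1 (adjusted p = 0.188) and Apical replicate 4 (0.0541), over a range of 0.0172 to 0.575. Pis06350.t1 had the smallest adjusted p of the members, 0.00138, at a difference of 1.27 (SE 0.19, limma), and kept its call without any single library. Pis10579.t1 was also called, at a difference of 1.06 (limma adjusted p = 0.0485), and lost the call in 21 of 26 alternatives (adjusted p 0.00296 to 0.589). The other members with the highest scores were not called: the limma adjusted p was 0.217 for Pis05187.t1, 0.416 for Pis05188.t1 and 0.0748 for Pis09875.t1. Pis09875.t1 was called in 4 of 26 alternatives (adjusted p 0.00137 to 0.438 over all), namely a pseudocount of 0.1, the replicate block, and without Basal replicate 3 or Petiole replicate 3. Without Basal replicate 3 the adjusted p by limma was also under the threshold for Pis05187.t1 (0.0327, over a range of 0.0327 to 0.765) and for Pis10223.t1 (0.0140, over a range of 0.0140 to 0.612), which was called with a pseudocount of 0.1 as well.

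Single Basal libraries moved the number of called members. Leaving out replicate 1 of Basal gave 7, leaving out replicate 4 gave 9 and leaving out replicate 3 gave 29. Over all transcripts tested the same settings gave 130, 144 and 351 called higher, so the number moved across the whole table. When limma was fitted to the 8 libraries of both regions alone it called 0 members, and 44 were higher in Basal at an unadjusted p under 0.05. Over all transcripts that fit also called 0, and 894 were higher at an unadjusted p under 0.05. The fit of all 20 libraries used a single spread per transcript for all 5 regions. The median SD over the members was 0.47 in Apical and 0.37 in Basal, against 0.35 in Petiole, 0.17 in Stem and 0.21 in Stolon. The SE and adjusted p values of that fit may therefore be too small for the members, also for the 16 called.

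The Basal against Apical difference was set beside other transcripts of single-row genes, chosen by rules of the same form. Of the 150 transcripts with the highest excess of Petiole and Stolon over Apical, Basal and Stem, 59 were called higher in Basal by limma. Of the 150 with the highest excess of Stem over all other regions 0 were called, with 1 at an unadjusted p under 0.05. By mean log2(TPM + 1) Basal was above Apical in 112 of this stem list and in 145 of the petiole-and-stolon list, against 49% of all tested. The median difference was 0.04 in the stem list and 1.09 in the other. How many of the stem list were near 0 TPM in both regions, where a difference is hard to call, was not counted. Of the 678 transcripts with a score of at least 1 that failed the range limit 100 were called higher in Basal, and of the 271 left out by the cap 2 were. In the number called the members, with 16 of 150, lie between the petiole-and-stolon list and the stem list. These lists were cut from the same libraries, no test of the differences between them was made, and nothing here makes a higher Basal level particular to the members.

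Libraries of a region differed from each other over the members as a group. The deviation of a library from its region mean, averaged over the 150 members, was 0.22, 0.07, -0.40 and 0.10 on the log2(TPM + 1) scale in Petiole replicates 1 to 4. In Basal it was 0.37, 0.02, -0.39 and -0.01. Petiole replicate 3 and Basal replicate 3 were thus low and Basal replicate 1 high over the members. Over all tested transcripts the same deviations lay between -0.05 and 0.04 in all 20 libraries. The lists most like the members also deviated in these libraries. The 150 transcripts high in Petiole and Stolon but not in Stem were at -0.29 in Petiole replicate 3, at 0.36 in Basal replicate 1 and at -0.44 in Basal replicate 3. The 150 stem-peaked transcripts were at -0.80 in Petiole replicate 3 but at -0.05 and -0.08 in Basal replicates 1 and 3, and the 271 left out by the cap were at -0.21, 0.13 and -0.16 in the same order of libraries. These deviations are therefore not particular to the members. Petiole replicate 3 was below the region mean in 135 of the 150 members and was the lowest Petiole library in 113, or 75.3%, against 33.5% of all transcripts tested. Basal replicate 3 was the lowest Basal library in 70.0% of the members, against 27.9% of all tested. In Stolon the deviations were 0.07, -0.02, -0.14 and 0.10, in Apical 0.13, 0.06, -0.14 and -0.05, and in Stem 0.09, -0.11, 0.04 and -0.01. Stem thus departed least from its mean, and there replicate 2 was the low library.

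**Figure D5:**
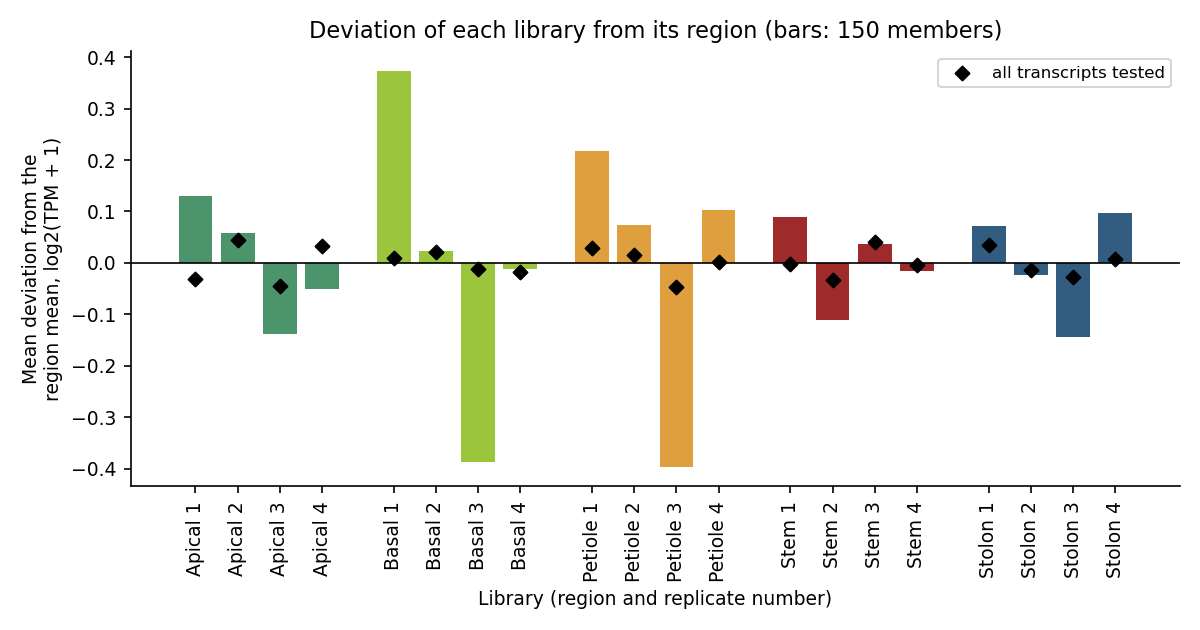
Mean deviation of each library from its region mean over the 150 members (bars, coloured by region) and over all 18727 tested transcripts (black diamonds), in log2(TPM + 1). Bars reach 0.37 in Basal replicate 1, -0.39 in Basal replicate 3 and -0.40 in Petiole replicate 3, while the diamonds stay between -0.05 and 0.04.

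The within-region spread followed this pattern. The median SD of log2(TPM + 1) over the members was 0.35 in Petiole and 0.37 in Basal, against 0.18 and 0.21 over the 7505 transcripts at 10 TPM or more in the 3 regions. In Stem it was 0.17 against 0.15, in Stolon 0.21 against 0.16 and in Apical 0.47 against 0.44. Over all transcripts tested the median was 0.26 in Petiole, 0.26 in Basal, 0.20 in Stem, 0.22 in Stolon and 0.45 in Apical. Against that background the members were more spread in Petiole and Basal, and less in Stem and Stolon. What set Petiole replicate 3 apart for these transcripts was not tested. It bears on who is a member: without that library 112 of the 150 were chosen again, the fewest for any library left out, and 19 of the original members then exceeded the range limit.

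The scale of TPM also bears on the scores. The 10 most abundant transcripts took 11.9% to 16.9% of TPM in Apical and 14.9% to 16.4% in Basal, against 7.02% to 8.63% in Petiole, 8.59% to 10.5% in Stem and 7.96% to 8.92% in Stolon. Median-of-ratios size factors were 0.798 to 1.03 in Apical and Basal and 1.03 to 1.25 in the 3 other regions. After dividing by them the median score over the 7505 transcripts moved from 0.04 to -0.31 and that of the members from 2.16 to 1.83. No member then scored under 1, but 28 exceeded the range limit and 6 fell under 10 TPM in a region, and 116 of the 150 were chosen by the rule on the rescaled values. All conditions but the cap were then met by 216 transcripts in place of 421.

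Other features of the list were looked at that the rule does not use. In identifier number, 5 pairs of members were immediate successors and 15 members lay within 3 numbers of another member. These included Pis03007.t1 with Pis03008.t1 and Pis03010.t1, Pis05187.t1 with Pis05188.t1, Pis12076.t1 with Pis12078.t1, and Pis15469.t1 with Pis15470.t1, whose profiles over the 20 libraries had Pearson r between 0.93 and 0.99. For Pis06956.t1 with Pis06957.t1 the r was 0.93, for Pis15066.t1 with Pis15068.t1 0.92 and for Pis12755.t1 with Pis12756.t1 0.78. All but the named members among them were singled out after their numbers were seen. The sources used here do not state whether numbers follow the order of genes on a chromosome. The r values of these pairs take in the step from Apical and Basal to the other regions, which the rule chose in every member. Members far apart in number were not compared, so these r values do not set neighbours apart.

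The transcripts most like Pis05187.t1 over the 20 libraries were sought among the 9364 others at 10 TPM or more in the 3 regions, including those of genes with several rows. Pis12620.t1, Pis00396.t1 and Pis09875.t1 had the highest Pearson r, each 0.99. Pis12620.t1 is a member with a score of 1.97, at 45.1 ± 7.26 TPM in Petiole, 42.0 ± 4.87 in Stem and 61.1 ± 3.24 in Stolon (SD, n = 4 each), against 10.2 ± 2.91 in Basal and 5.82 ± 1.01 in Apical. Pis00396.t1 is no member although its score was 4.49, because its Stolon mean of 137 ± 23.6 TPM exceeded Petiole, at 74.7 ± 26.4, and Stem, at 80.2 ± 5.20, by more than the range limit allows. The libraries fall into a low group (Apical and Basal) and a high group, and a high r takes in that step.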

How the data were processed

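Poly-A RNA of 5 dissected Pistia regions was sequenced, with 4 libraries per region. Per the labels, RNA was extracted with a column kit with an additional wash, and libraries had fragments of 370 to 420 bp. The values are TPM that the authors deposited. The submitters' processing notes name Salmon 1.10.0. Which transcript set and filter were used is not given in the sources used here, and each deposited transcript exceeds 2.00 TPM in at least 1 library. TPM needs a log-scale test and leaves counting error unknown.

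The members and all lists were chosen with earlier results of these data known. Basal and Apical were compared on log2(TPM + 1) with limma 3.58.1 in R 4.3.3, with empirical Bayes variances that follow a trend in level, 5 regions in the model and no replicate block. Transcripts with at least 1 TPM in at least 4 libraries were tested, two-sided, with Benjamini-Hochberg adjustment and a threshold of 0.05. No contrast that the rule used was tested. With the pseudocount of 1, folds of low transcripts come out too small. The procedure was also run on simulated data in which 200 transcripts were changed. That simulation gave a transcript the same spread in every region and drew the libraries independently. It therefore cannot show that the p-values hold where regions differ in spread or members deviate together.

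The named members were the 8 highest scores, the 6 highest levels, the 6 largest Basal minus Apical differences among the called, the 3 smallest ranges, the 3 largest SDs, and the 3 last inside and first 3 outside the cap. The comparison lists were the 150 highest excesses of at least 1, at 10 TPM or more in the high regions. Alternatives tried were leaving the filter out, a pseudocount of 0.1, rescaling by median-of-ratios size factors, the replicate block, fewer regions in the fit, other limits of the rule, and leaving out each library.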

Additional observations from a re-analysis of the deposited data

Results flagged for a closer look

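The values below belong to libraries far from the other 3 of their region, by the size of the gap against the whole range of the 4. Of 140 groups of 4 libraries looked at for 28 named transcripts 12 were marked in this way. Chance marks about 1 in 20 groups only where the values are independent and normally distributed. TPM values need not be, and the members deviated together in some libraries. The 12 of 140 can therefore not be judged against that rate.

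Summed over the 150 members, Petiole replicate 3 stood at 7460 TPM, against 10766 in the next lowest Petiole library. In that library Pis10987.t1 stood at 270.2 TPM against 503 in the next lowest, and Pis00383.t1 at 84.5 TPM against 156. In Stolon, Pis03574.t1 reached 125 TPM in replicate 4 against 74.9 in the next, and Pis06350.t1 81.3 TPM in replicate 3 against 51.0. Pis18234.t1 reached 139 TPM in Stem replicate 1 against 45.9 in the next, and 83.3 TPM in Stolon replicate 2 against 49.7.

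In Apical, replicate 1 was high for Pis12078.t1, at 14.6 TPM against 4.35, for Pis12076.t1, at 3.83 TPM against 1.23, and for Pis09875.t1, at 0.252 TPM where the other 3 libraries were listed at 0. Apical replicate 2 was high for Pis01595.t1, at 3.24 TPM against 2.25. Of the transcripts just outside the list, Pis14661.t1 had a low Apical replicate 3, at 3.29 TPM against 5.45, and Pis09460.t1 a high Apical replicate 4, at 9.72 TPM against 4.23.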

How the results depend on the processing

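Membership depended most on the range limit: of the 150 members, 68 were chosen again with a limit of 0.5 and 76 with a limit of 1. Leaving out single libraries kept 112 to 149, and the other limits and scales tried kept 111 to 138. For the Basal against Apical comparison, the count of members called higher was 28 with the replicate block, 0 in a fit of Basal and Apical alone, 0 when that smaller fit had the block (added after seeing the data), and 7 to 29 when single libraries were left out. All 16 were among the 28 called with the block. Limma called no member lower under any of the 26 alternatives. Over all transcripts, 223 were higher and 7 lower. With a pseudocount of 0.1 there were 366 higher, with the block 382 and 20, after rescaling 14 lower, and in the fit of Basal and Apical alone 0 and 0, with or without the block (894 and 219 at an unadjusted p under 0.05 without it, 1176 and 313 with it). Leaving out single libraries gave 130 to 351 higher and 4 to 24 lower. The cause of these changes was not tested. The fits of Basal and Apical alone had both fewer samples and a spread taken from those regions only, and these cannot be told apart. Libraries of Basal and Apical that share a number were not taken as paired. Their deviations over all tested transcripts correlated at 0.25, 0.35, 0.31 and -0.02, and a correlation of at least 0.1 was required in every number. Only Apical with Stem reached that limit. Across the members the Basal and Apical values were 0.47, 0.46, 0.34 and -0.13, so the fit without the block may leave out a part shared within numbers. The difference of Pis08947.t1, 0.12 and not called, ranged from -0.0529, without Apical replicate 1, to 0.395 when single libraries were left out. The library deviations of Petiole and Basal replicates 1 and 3, recomputed with a pseudocount of 0.1 and after rescaling (added after seeing the data), kept their direction. The members' median SDs then lay between 0.15 in Stem and 0.63 in Apical, and those of the 7505 transcripts were not recomputed. TPM carries no depth, so no limit of detection is given.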

Other observations

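The deviations of Petiole replicate 3 and Stolon replicate 3 from their region means had a Pearson r of 0.74 across the 150 members, against 0.33 across all tested transcripts. Over the 10 pairs of regions, the r of libraries sharing number 3 lay between 0.27 and 0.74 across members, for number 2 between 0.30 and 0.64, for number 1 between -0.03 and 0.47, and for number 4 between -0.13 and 0.40. Across all tested transcripts these ranges were 0.10 to 0.33, 0.12 to 0.35, 0.03 to 0.25 and -0.02 to 0.18. The transcripts of a library share its scaling and are not independent, and the labels do not say whether libraries of one number came from the same plants. When genes with several rows were admitted, each transcript on its own, 533 transcripts met the conditions in place of 421, and 119 of the 150 members stayed among the highest 150. Of the members themselves 3 carry a suffix other than .t1, although each is the only row of its gene in the table.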
